A study of Mus musculus with 6 samples.

Results

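Mast cells, basophils and eosinophils are granulated cells of the myeloid side of blood formation, and 10 genes that mark them were followed here in progenitors sorted from mouse fetal liver. The 10 genes were Cpa3, Cma1, Tpsb2, Hdc, Il1rl1, Mcpt8, Prss34, Epx, Prg2 and Ear6. Every probe that its RefSeq accession assigns to one of them was taken, which gave 13 of the 27248 named probes on the array and 10 of the 20667 named genes. Tpsb2 had 2 probes, Il1rl1 had 3 and the other genes had 1 each.

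The data are 6 single-colour Agilent expression arrays, with 1 array for each combination of genotype and sorted population. The cells came from E18.5 embryos on the C57BL6/J background, either Satb1-null or wild type littermates, and the series asked which genes depend on Satb1, a chromatin organiser. All 3 populations came from fetal liver and were sorted without cells bearing lineage markers. The HSC-enriched cells were c-kit high, Sca-1 positive and Flt3 negative, the LMPP-enriched cells had the same gate but were Flt3 positive, and the CLP-enriched cells were low for c-kit and Sca-1 and positive for the IL7 receptor alpha chain. How the null allele was made, how many embryos were pooled, whether 1 set of embryos gave all 3 populations and which antibodies made up the lineage panel are not given in the sources used here.

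Mast cells and basophils store histamine, which histidine decarboxylase makes, and they release granule contents when antigen cross-links IgE on their surface. Mast cell granules also hold chymases, tryptases and carboxypeptidase, basophils carry proteases of their own, and eosinophil granules are filled with major basic protein, a peroxidase and small ribonucleases. These lineages arise from progenitors that depend on GATA factors, and fetal liver holds such progenitors beside stem cells. In sorted bulk RNA, fewer cells of a type and less RNA per cell cannot be told apart.

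The genes followed 3 patterns, which both genotypes shared. Among these 10 genes the patterns parted by role except for Cpa3, but the rise in CLP was not particular to these lineages. All 11 neutrophil and monocyte markers were also past 2-fold higher in CLP than in LMPP in both genotypes, against 8.25% of 12865 genes. Of these 11 markers, 3 also fell past 2-fold from HSC to LMPP, against 1.8% of 12801 genes. The mast cell proteases Cma1 and Tpsb2 were highest in HSC and low in LMPP and CLP. Cpa3, Hdc and Il1rl1 were high in HSC and in CLP and low in LMPP. The basophil proteases Mcpt8 and Prss34 and the eosinophil genes Epx, Prg2 and Ear6 were highest in CLP, by 10.3-fold or more over LMPP for the 3 eosinophil genes. Between genotypes the differences were smaller, and a test over the 6 arrays called none of these genes.

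**Figure D1:**
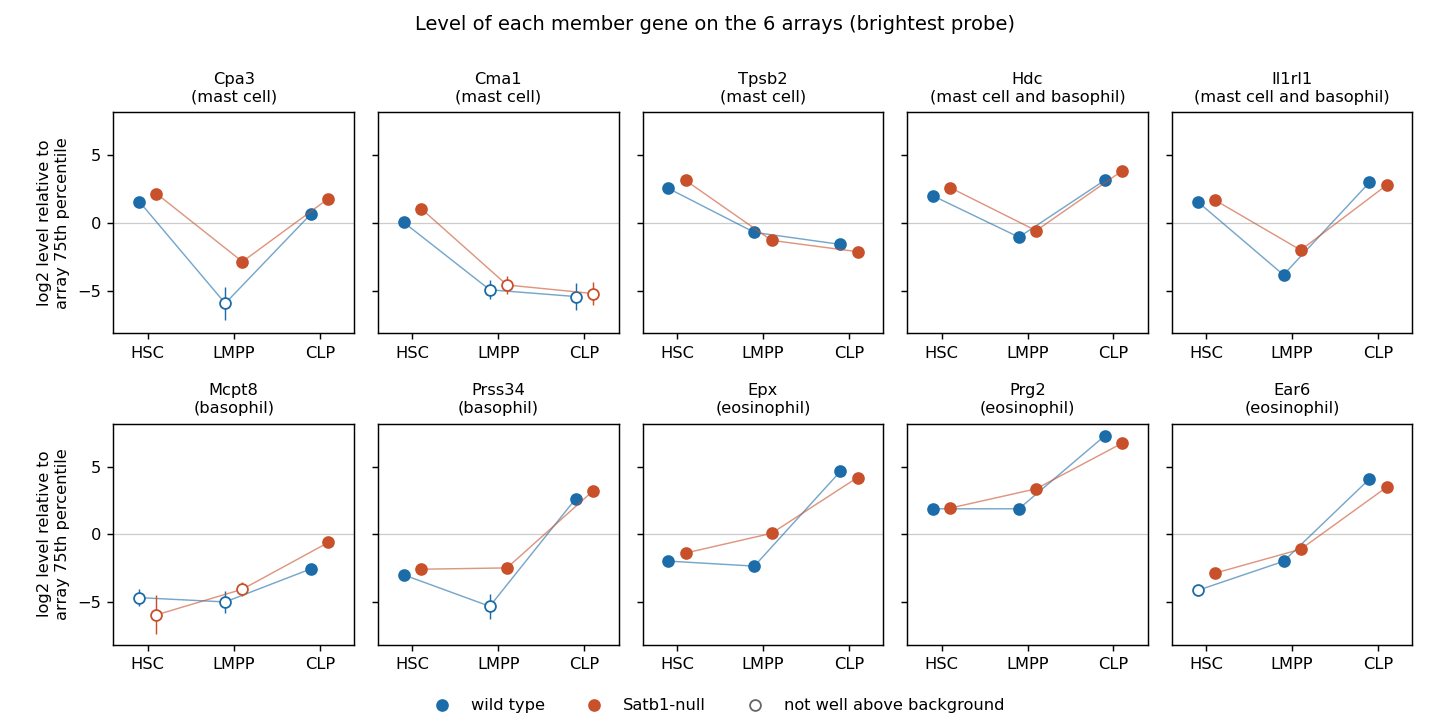
Log2 level of each of the 10 genes (1 panel a gene, the probe with the highest mean signal) against sorted population, wild type in blue and Satb1-null in red; 0 is the array's 75th percentile, bars are the scanner's own error, open points were not well above background, and each point is 1 array. Cma1 and Tpsb2 peak in HSC, Cpa3, Hdc and Il1rl1 dip in LMPP, and the bottom row peaks in CLP in both genotypes.

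The sequences before the transcription start are shown for the 4 genes that stand for the HSC-high, the dipping and the CLP-high patterns and whose promoter holds a GATA hexamer. RefSeq gave 9 promoters of 8 of the genes, on GRCm38.p6. Each run below is the 250 bases before the first transcribed base, 5′ to 3′ in the direction of transcription, and capitals mark GATA hexamers on either strand. The hexamer was spelled AGATAA or, with a last G, AGATAG. It was also searched with T as its first base, as TGATAA or, with the last G, TGATAG.
Cma1 (chr14:55944676-55944925, minus strand): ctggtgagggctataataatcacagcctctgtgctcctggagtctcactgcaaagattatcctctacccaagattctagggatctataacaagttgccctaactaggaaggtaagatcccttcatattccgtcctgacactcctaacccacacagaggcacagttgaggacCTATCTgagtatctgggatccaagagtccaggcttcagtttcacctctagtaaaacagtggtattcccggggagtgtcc
Cpa3 (chr3:20242182-20242431, minus strand): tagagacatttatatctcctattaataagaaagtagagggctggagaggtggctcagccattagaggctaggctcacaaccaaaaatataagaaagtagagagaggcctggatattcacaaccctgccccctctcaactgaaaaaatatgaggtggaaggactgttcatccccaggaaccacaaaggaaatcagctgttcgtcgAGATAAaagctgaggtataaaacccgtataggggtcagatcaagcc
Il1rl1, distal start (chr1:40429320-40429569, plus strand): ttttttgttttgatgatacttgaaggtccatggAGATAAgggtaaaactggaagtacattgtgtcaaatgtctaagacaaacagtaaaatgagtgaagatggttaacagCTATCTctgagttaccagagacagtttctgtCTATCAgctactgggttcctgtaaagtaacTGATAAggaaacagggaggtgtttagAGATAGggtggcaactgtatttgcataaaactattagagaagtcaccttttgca
Il1rl1, proximal start (chr1:40439379-40439628, plus strand): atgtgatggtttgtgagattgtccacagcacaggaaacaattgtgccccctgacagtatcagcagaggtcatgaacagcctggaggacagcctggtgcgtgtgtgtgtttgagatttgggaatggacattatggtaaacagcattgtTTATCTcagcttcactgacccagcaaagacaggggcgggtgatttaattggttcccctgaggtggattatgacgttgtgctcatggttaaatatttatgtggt
Prss34 (chr17:25298144-25298393, plus strand): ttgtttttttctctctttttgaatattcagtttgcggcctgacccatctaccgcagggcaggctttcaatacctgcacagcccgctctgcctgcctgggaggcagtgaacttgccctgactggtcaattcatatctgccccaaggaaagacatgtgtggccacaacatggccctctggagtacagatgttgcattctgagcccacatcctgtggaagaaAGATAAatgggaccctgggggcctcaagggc

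A GATA hexamer was found in 6 of the 9 promoters, both Il1rl1 promoters among them, against 26.6% of 32817 mouse promoters of the same length. The start used is the RefSeq gene start for Cma1, Prss34, Epx and Ear6, but not for Cpa3, Hdc, Mcpt8 or either Il1rl1 promoter. The hexamer began 79 bases before the start in Cma1, 46 bases in Cpa3 and 31 bases in Prss34. The distal Il1rl1 promoter held 5 of them, between 217 and 54 bases before the start, and the proximal one held 1, at 103 bases. Hdc had 1 match at 221 bases, and Epx, Ear6 and Mcpt8 had none in this window. The Runx letters TGTGGT stood in 3 of 9 promoters (14.0% of all), the C/EBP letters TTGCNNAA in 1 of 9 (9.6%), the E-box CATGTG in 1 of 9 (12.3%) and the PU.1 letters GAGGAAG in 0 of 9 (10.6%), each searched on both strands; CATGTG can overlap the Runx letters. These matches describe the letters alone.

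Levels are given as log2 of the spot signal relative to the 75th percentile of the same array, so a level of 0 is the 75th percentile and a step of 1 is 2-fold. The error the scanner software gives for a difference between 2 arrays was about 0.204 on this scale for bright probes and up to 1.47 for dim ones, and it does not hold the spread between cell samples, because each group had 1 array. A difference between 2 arrays therefore has no replicate check and carries no p-value. Where a probe did not pass the scanner's background test on its dimmer array, the fold is a bound, written "at least". The bound is taken against the probe's own signal or the dimmest signal that passed on that array, whichever was higher. A population difference was counted only where both genotypes were past 2-fold the same way. Probes well above background on 3 or more arrays were also tested with limma over the 6 arrays, with genotype and population as terms and Benjamini-Hochberg adjustment over 30576 probes. The 2 residual degrees of freedom come only from how differences vary between these arrays, which may share embryos.

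The arrays were close in quality: 52.4% to 57.7% of spots were well above background and none was saturated. All lay on 1 slide, with genotype as the slide's row and population as its column, so neither can be told apart from position on the slide. The populations were checked against their markers. The summed level of 5 stem cell genes, Hlf, Mecom, Procr and Mycn among them, in LMPP and CLP was 0.984 and 0.164 of that in HSC for wild type, and 4 of 5 were lower in CLP than in LMPP in both genotypes. Flt3 was highest in LMPP, and Il7r was well above background everywhere with its lowest levels in HSC. Kit, the gene of c-kit, differed between CLP and HSC by -1.63 in wild type and by -0.90, under 2-fold, in null. Ly6a, the gene of Sca-1, differed by -0.08 and -0.85, so its RNA did not set the Sca-1 low CLP apart by 2-fold. The lymphoid genes Rag1, Rag2 and Ly6d were dim in wild type CLP (-1.88, -1.87 and -3.54) and higher in null CLP (0.53, 0.01 and -2.42). Rag2 fell from LMPP to CLP in wild type (-1.88) but not in null (0.16). The Satb1 probe, highest in LMPP in both genotypes, differed between null and wild type by -0.56 in HSC, -0.04 in LMPP and -0.06 in CLP; where it lies relative to the null allele is not given, so it does not check the genotype labels.

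Cma1 encodes mast cell chymase (probe A_51_P514029). Its level was 0.05 in wild type HSC and 1.08 in null HSC, and the 4 LMPP and CLP arrays read -4.92, -5.42, -4.57 and -5.20, none of them well above background. Cma1 was thus measured in HSC alone. It was at least 17.0-fold lower in LMPP and at least 17.6-fold lower in CLP than in HSC for wild type, and at least 28.6-fold and 38.4-fold lower for null. With 2 arrays measuring it, Cma1 was left out of the limma test over detected probes. With all 55681 probes fitted and no detection filter, it differed between CLP and HSC by -4.70 (limma, SE 0.332, adjusted p = 0.0167). In that fit its 4 LMPP and CLP values were lifted to the lowest signal well above background of their array. The SE and p-value therefore rest in part on set values, and the p-value is not support for the difference.

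Tpsb2 encodes a mast cell tryptase. Its probe A_55_P2127243 read 2.56 in HSC, -0.69 in LMPP and -1.57 in CLP for wild type, and 3.15, -1.27 and -2.11 for null. The order HSC, LMPP, CLP was the same in both genotypes. LMPP was 9.48-fold lower than HSC in wild type and 21.5-fold lower in null, while the step from LMPP to CLP was under 2-fold in each. The other probe, A_55_P2089143, read 1.60, -3.24 and -2.57 for wild type and 2.58, -2.04 and -3.04 for null. It repeated the HSC peak but placed wild type CLP above LMPP by 0.67, so the order of the 2 low populations is not settled. In limma with Benjamini-Hochberg adjustment, Tpsb2 fell from HSC to CLP by 4.70 (SE 0.398, adjusted p = 0.0377) at the first probe and by 4.89 (SE 0.491, adjusted p = 0.0389) at the other. Tpsb2 is near-identical in sequence to the tryptase gene Tpsab1, and the files do not say whether either probe separates them.

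Cpa3 encodes carboxypeptidase A3 of mast cell granules, and early progenitors are known to transcribe it too (probe A_51_P214127). It read 1.59 in HSC, -5.92 in LMPP and 0.69 in CLP for wild type, and 2.18, -2.85 and 1.81 for null. The wild type LMPP array was not well above background, and the other 5 arrays were. Cpa3 was at least 49.5-fold lower in wild type LMPP than in HSC, and 32.5-fold lower in null. CLP stood 26.5-fold or more above LMPP in wild type and 25.2-fold in null, and the gap between HSC and CLP stayed under 2-fold in both (-0.90 and -0.37).

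Hdc makes histamine in mast cells and basophils (probe A_51_P254656). It read 2.01 in HSC, -1.04 in LMPP and 3.17 in CLP for wild type, and 2.61, -0.56 and 3.85 for null. CLP was highest and LMPP lowest in both. The drop from HSC to LMPP was 8.28-fold in wild type and 9.02-fold in null, and CLP exceeded HSC by 2.23-fold and 2.36-fold.

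Il1rl1 encodes ST2, the receptor for the alarmin IL-33 on mast cells, basophils and other cells. Probe A_55_P2027737 read 1.58 in HSC, -3.82 in LMPP and 3.01 in CLP for wild type, and 1.71, -1.99 and 2.80 for null. The dip in LMPP was 42.4-fold below HSC in wild type and 13.0-fold in null. Probe A_55_P2027731, assigned to the same transcript, read -3.32, -6.12 and -2.25 for wild type and -1.55, -5.87 and -1.31 for null, with both LMPP arrays not well above background. It kept LMPP lowest. The third probe, A_51_P339793, is assigned to another RefSeq transcript of the gene and was well above background only in wild type CLP, at -2.00. The transcript starts above refer to RefSeq entries, and the probes do not show which start was used.

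Mcpt8 encodes a protease found in basophils (probe A_51_P413059). It was well above background in CLP alone, at -2.54 in wild type and -0.60 in null. The HSC arrays read -4.67 in wild type and -5.94 in null, and the LMPP arrays -4.99 and -4.05. Against LMPP, CLP was at least 2.82-fold higher in wild type and at least 8.94-fold higher in null. With 2 arrays measuring it, Mcpt8 was left out of the limma test over detected probes. With all probes fitted it differed between CLP and HSC by 2.46 (limma, SE 0.517, adjusted p = 0.0904). In that fit its HSC and LMPP values were lifted to the lowest signal well above background of their array. The SE and p-value therefore rest in part on set values.

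Prss34 encodes a serine protease of basophils and some mast cells (probe A_51_P194609). It read -2.99 in HSC, -5.31 in LMPP and 2.63 in CLP for wild type, and -2.58, -2.48 and 3.20 for null, with the wild type LMPP array not well above background. CLP was far above the other populations in both genotypes. It exceeded HSC by 49.3-fold in wild type and 54.7-fold in null, and LMPP by at least 102-fold and by 51.2-fold.

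Epx encodes eosinophil peroxidase (probe A_51_P386625). It read -1.98 in HSC, -2.35 in LMPP and 4.64 in CLP for wild type, and -1.38, 0.07 and 4.19 for null. HSC and LMPP were close in wild type (1.29-fold), while null LMPP stood 2.74-fold above null HSC. CLP exceeded LMPP by 127-fold in wild type and 17.3-fold in null.

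Prg2 encodes the major basic protein of eosinophils (probe A_51_P363400). It read 1.88 in HSC, 1.88 in LMPP and 7.27 in CLP for wild type, and 1.93, 3.36 and 6.72 for null. The HSC arrays of both genotypes and the wild type LMPP array lay within the scanner error of each other. CLP exceeded LMPP by 42.1-fold in wild type and 10.3-fold in null.

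Ear6 encodes a ribonuclease of the eosinophil-associated family (probe A_55_P2004375). It read -4.14 in HSC, not well above background, -2.00 in LMPP and 4.08 in CLP for wild type, and -2.87, -1.10 and 3.48 for null. The order HSC, LMPP, CLP held in both genotypes. LMPP was at least 4.10-fold above HSC in wild type and 3.42-fold in null, and CLP exceeded LMPP by 67.5-fold and 23.9-fold. Ear genes are close paralogs, so this probe may also detect other members of the family.

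**Figure D2:**
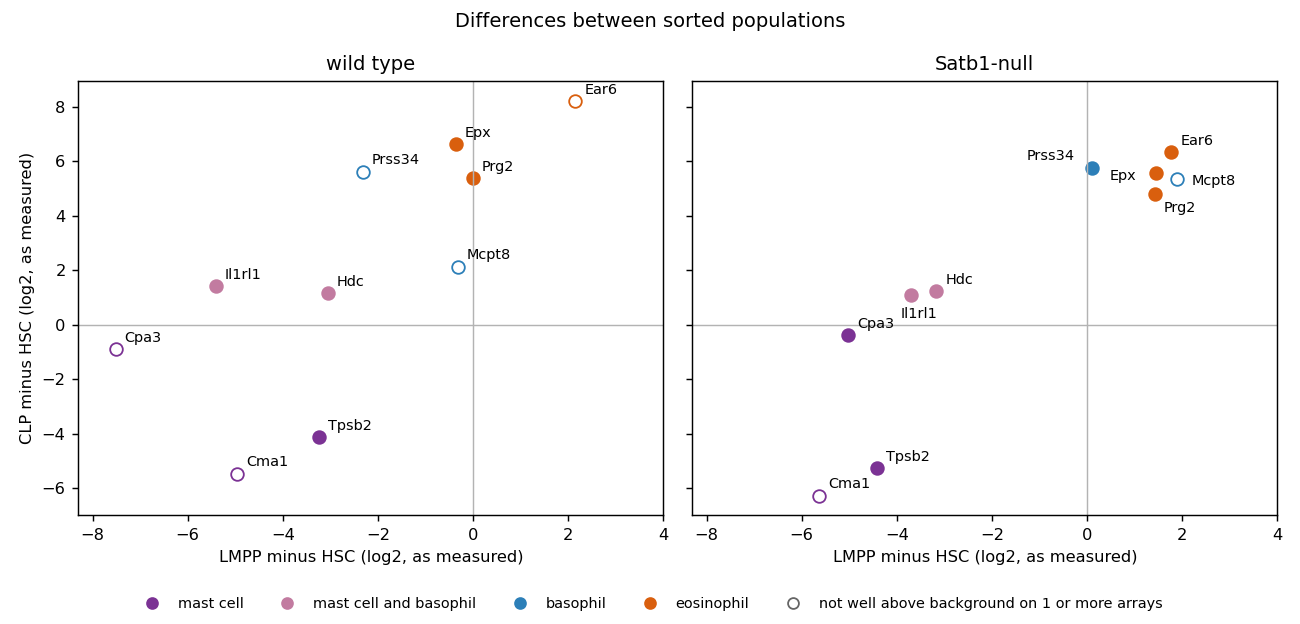
Each point is 1 gene, placed by its LMPP minus HSC (x) and CLP minus HSC (y) log2 difference as measured, wild type on the left and Satb1-null on the right; colours give the role, and open points rest on at least 1 array not well above background. Tpsb2 and Cma1 lie at the lower left, Cpa3, Hdc and Il1rl1 at the left near 0 on the y axis, and the basophil and eosinophil genes at the top, except Mcpt8 in wild type, which lies lower.

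From HSC to LMPP, 5 of the 9 genes compared were lower past 2-fold in both genotypes, namely Cma1, Cpa3, Hdc, Il1rl1 and Tpsb2, against 1.8% of 12801 genes, and 1 was higher, Ear6, against 1.82%. The median of the 9 was -3.05 in wild type and -3.17 in null, beside 0.20 and 0.03 over all genes. In limma with Benjamini-Hochberg adjustment no probe was called higher (0.0%) or lower (0.0%) between LMPP and HSC, though 2377 probes had an unadjusted p under 0.05, 5 of the 8 tested genes among them. The fitted difference was -5.33 for Cpa3 (SE 0.286) and -3.11 for Hdc (SE 0.244), both with an adjusted p of 0.544.

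From LMPP to CLP, 8 of the 9 genes compared were higher past 2-fold in both genotypes, against 8.25% of 12865 genes, and 0 were lower, against 7.63%. Tpsb2 was the exception, and Cma1 was not compared because it was measured in neither population. The median was 5.39 in wild type and 4.41 in null, beside -0.07 and 0.01 over all genes. Limma with Benjamini-Hochberg adjustment called 7 of the 8 genes higher in CLP (1.6% of 30576 probes) and 0 lower (1.34%). Prss34 rose by 6.17 (SE 0.380, adjusted p = 0.0346), Il1rl1 by 5.81 (SE 0.571, adjusted p = 0.0356), Epx by 5.55 (SE 0.731, adjusted p = 0.0457) and Ear6 by 5.33 (SE 0.512, adjusted p = 0.035). The Il1rl1 call holds for its brightest probe only. Its probe A_55_P2027731 rose by 2.12 and was not called (limma, SE 0.428, adjusted p = 0.0845). Cpa3 rose by 4.69 (SE 0.286, adjusted p = 0.0346), Prg2 by 4.38 (SE 0.551, adjusted p = 0.0435) and Hdc by 4.31 (SE 0.244, adjusted p = 0.0346). With dim values left at their measured level the count was 4, because Cpa3, Epx and Prg2 then had adjusted p-values of 0.0561, 0.0622 and 0.0588. It was 5, without Epx and Prg2, with the 75th percentile over detected probes (limma adjusted p = 0.0551 and 0.0532), with quantile normalization (0.0594 and 0.0546) and with the authors' table (0.0542 and 0.052).

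From HSC to CLP, a contrast added after the values were seen for the counts of genes past 2-fold, 7 of 10 genes were higher in both genotypes (Ear6, Epx, Hdc, Il1rl1, Mcpt8, Prg2 and Prss34), against 9.07% of 13135 genes, and Cma1 and Tpsb2 were lower, against 6.67%. Cpa3 differed by less than 2-fold. The median was 1.45 in wild type and 2.34 in null, beside 0.04 over all genes in each. Limma with Benjamini-Hochberg adjustment called 4 genes higher (1.21% of probes) and 1 lower (1.06%). Ear6 rose by 7.23 (SE 0.512, adjusted p = 0.0346), Epx by 6.09 (SE 0.731, adjusted p = 0.0435), Prss34 by 5.70 (SE 0.380, adjusted p = 0.0346) and Prg2 by 5.09 (SE 0.551, adjusted p = 0.0409), and Tpsb2 was the one that fell. These calls lie close to the threshold: 2 of the 4 remained with quantile normalization (Ear6 and Prss34) and 1 (Ear6, adjusted p = 0.0441) with dim values left as measured. The LMPP to CLP and HSC to CLP contrasts share the CLP arrays.

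Other genes of these lineages gave the same populations in part. Of the 8 other eosinophil genes, 7 were compared and all 7 were past 2-fold higher in CLP than in LMPP in both genotypes, against 8.25% of 12865 genes. Limma called 6 of 7 higher, against 1.6% of 30576 probes. Probes of Ear paralogs may detect one another, so these counts may not be of separate genes. The granule gene Prg3 read -0.52 in HSC, -1.03 in LMPP and 4.51 in CLP for wild type, and -0.88, -0.37 and 4.37 for null. The ribonuclease gene Ear1 read -0.97, 0.65 and 6.13 in wild type, and -0.06, 1.61 and 5.69 in null. Its paralogs Ear2 and Ear10 reached 5.28 and 5.93 in wild type CLP and 4.77 and 5.50 in null CLP. Ccr3, the eotaxin receptor, stayed below detection on all 6 arrays, and Il5ra, a receptor subunit for the eosinophil growth factor IL-5, was the tested gene of this list that limma did not call (1.99, SE 0.526, adjusted p = 0.13).

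Among 7 related granule proteases with a named probe, 2 could be compared between CLP and LMPP in both genotypes. Ctsg, cathepsin G of neutrophil and mast cell granules, was the one past 2-fold, higher in CLP, and the one limma called. Mcpt4, a mast cell chymase, was like Cma1 well above background in HSC alone, at -3.10 in wild type and -2.46 in null. At these dim levels its bounds were small. They were -0.94 for LMPP and -0.99 for CLP against HSC in wild type, and -1.31 and -1.73 in null. Mcpt2 was well above background only on the null LMPP array, at 0.22, where it stood at least 4.26 above wild type LMPP on the log2 scale. Cma2 lay between -1.99 and -0.55 on all arrays. Mcpt1, Mcpt9 and Tpsg1 stayed below detection on all 6 arrays.

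Of 15 receptors and mediators of mast cells and basophils, 5 of the 11 compared were past 2-fold higher in CLP than in LMPP in both genotypes and 0 lower. Over all genes the shares were 8.25% and 7.63%. Limma called 2 of 9 higher, Alox5 and Fcer1g, against 1.6% of probes. Alox5, which starts leukotriene synthesis, read -2.45, -4.41 and 1.33 in wild type and -3.56, -5.97 and 1.22 in null, with the LMPP arrays not well above background. Fcer1g, the Fc receptor gamma chain of many myeloid cells, read 2.04, 2.25 and 5.50 in wild type and 2.27, 2.55 and 5.27 in null. Slc18a2, which loads histamine and other amines into granules, followed the HSC-high pattern: it read 1.61, -0.65 and -1.08 in wild type and 1.93, -0.63 and -0.19 in null, and limma called it lower in CLP than in HSC (-2.40, SE 0.319, adjusted p = 0.0492). The basophil and mast cell surface gene Cd200r3 was well above background in CLP alone (-2.43 in wild type, -1.18 in null), as was the cytokine gene Il13 (-2.72 and -0.59). The IgE receptor beta chain gene Ms4a2 was well above background in null CLP alone (-2.24). The alpha chain gene Fcer1a, Mrgprb2 and Hpgds stayed below detection on all 6 arrays, also in CLP, where Hdc and Prss34 were high. Whether these probes can detect their genes is not known, because no array measured them.

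Of 15 receptors and transcription factors, 6 were past 2-fold higher in CLP than in LMPP in both genotypes and 0 lower, against 8.25% and 7.63% of all genes. Limma called 3 higher, against 1.6% of probes. Gata1, like Cpa3, Hdc and Il1rl1, was lowest in LMPP. It read 2.17, 0.05 and 4.77 in wild type and 2.69, 1.06 and 4.57 in null, and rose from LMPP to CLP by 4.12 (limma, SE 0.375, adjusted p = 0.035). Gata1 exceeded its HSC level in CLP by 2.60 and 1.88, while Cpa3 differed by -0.90 and -0.37. A fall past 2-fold from HSC to LMPP in both genotypes was not particular to these genes. It was shared by 3 of 11 neutrophil and monocyte markers and 2 of 7 erythroid markers compared, Elane and Epor among them, with 0 higher. A link between Gata1 and the dip was not tested. Gata2, needed for mast cell formation, read 2.62, 1.60 and 1.45 in wild type and 3.27, 1.36 and 1.71 in null, highest in HSC. Cebpe, a factor of granule formation in neutrophils and eosinophils, read 0.39, -0.70 and 4.40 in wild type and 1.89, -0.14 and 3.93 in null, and rose from LMPP to CLP by 4.59 (limma, SE 0.529, adjusted p = 0.0395). The cytokine receptor gene Csf2rb2 rose by 2.28 over the same step (limma, SE 0.288, adjusted p = 0.0435), and Irf8, a factor of monocytes and dendritic cells, rose from HSC to CLP by 3.69 (limma, SE 0.256, adjusted p = 0.0346). Mitf, a central factor of mast cells, read -2.23, -1.47 and -0.75 in wild type and -0.96, -2.72 and -2.24 in null. It was past 2-fold lower in null LMPP and CLP (-1.25 and -1.49) and past 2-fold higher in null HSC (1.26).

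Profiles most like that of Prg2 were sought among 11021 genes well above background on all 6 arrays, by the root mean square difference of profiles centred over the 6 arrays. The nearest were Camp (0.253), a neutrophil granule peptide, Stfa2l1 (0.291), Cstdc4 (0.425), Hbb-bs (0.433), a beta globin, and Lcn2 (0.437), a neutrophil granule protein. Camp read 2.32, 2.65 and 7.53 in wild type and 2.74, 3.47 and 7.10 in null. Cpa3 and Mcpt8 were not well above background on all arrays and were not ranked.

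Markers of some other blood cells moved with the CLP pattern. All 11 neutrophil and monocyte markers and 7 of 8 erythroid markers were past 2-fold higher in CLP than in LMPP in both genotypes, against 8.25% of 12865 genes. So were 5 of the 7 B lineage and 4 of the 6 macrophage markers compared, but only 1 of 7 megakaryocyte and 0 of 3 T lineage markers. The summed neutrophil and monocyte level, as a fold of wild type HSC, was 0.851 in LMPP and 4.67 in CLP for wild type, and 1.31, 1.11 and 4.02 in null HSC, LMPP and CLP. The erythroid sum was 0.999 and 15.5 in wild type and 1.51, 2.63 and 16.0 in null. For comparison, the sum of the 3 eosinophil genes was 1.03 and 49.2 in wild type and 1.09, 2.94 and 33.7 in null. The sum of the 3 mast cell genes, which includes Cpa3, was also above LMPP in CLP but below HSC, at 0.068 and 0.198 in wild type and 1.56, 0.06 and 0.378 in null. The part of these other cells in the CLP values was not tested.

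**Figure D3:**
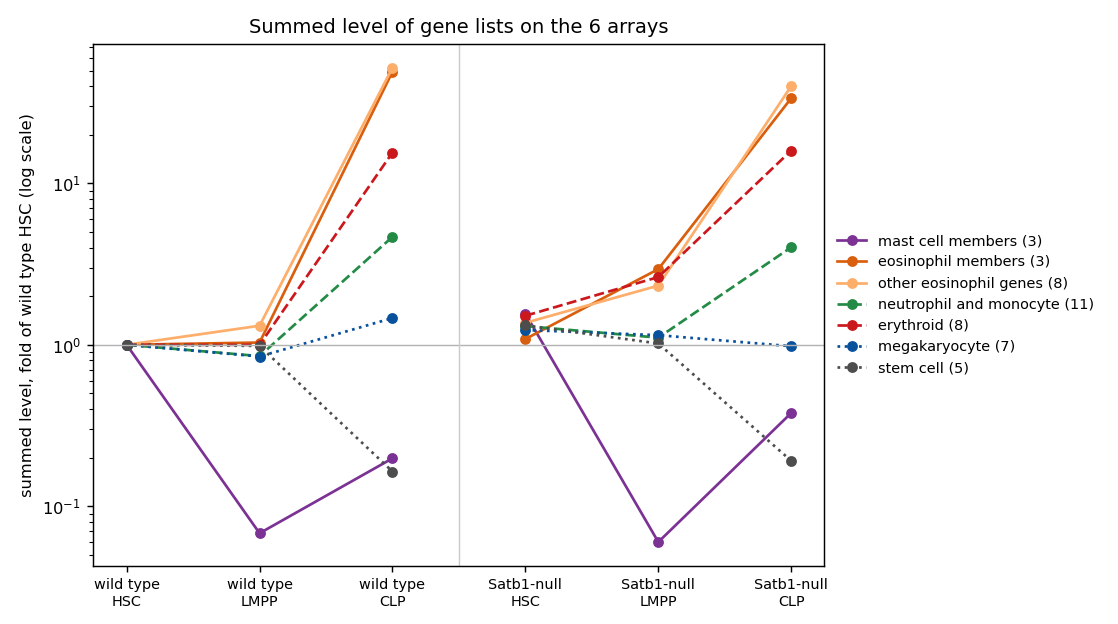
Summed level of each gene list on a log axis, as a fold of its sum on the wild type HSC array, for the 6 arrays; the number of genes is in brackets, and each point is 1 array. The eosinophil sums reach 49.2 and 33.7 in CLP and the erythroid sums 15.5 and 16.0, while the mast cell sum drops to 0.068 and 0.06 in LMPP.

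Between genotypes in HSC, 2 of the 9 genes compared were past 2-fold higher in null, against 8.43% of 13943 genes, and 0 were lower, against 5.85%. Cma1 was 2.04-fold higher (difference 1.03, scanner error 0.206) and Ear6 at least 2.23-fold higher. The 9 differences ran from 0.05 (Prg2) to 1.16 (the Ear6 bound), with a median of 0.59 beside 0.13 over all genes. Neither Cma1 nor Ear6 was past 2-fold with normexp background correction (0.75 and 0.17). Il1rl1 was 0.12 apart at its first probe but 1.77 at the second. Prg2 was below 0 with the 75th percentile over detected probes (-0.07), quantile normalization (-0.08) and the authors' table (-0.04). On the null HSC array 4 of 6 B lineage genes compared and 3 of 7 erythroid genes were also past 2-fold higher than in wild type HSC, and 0 in each list were lower. Their summed levels were 4.04 and 1.51 times those of wild type HSC, and the part of such cells in the HSC differences was not tested.

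In LMPP, 5 of the 8 genes compared were past 2-fold higher in null, against 5.83% of 13296 genes, and 0 were lower, against 3.77%. Epx was 5.35-fold higher (2.42, scanner error 0.228), Il1rl1 3.55-fold (1.83, scanner error 0.344) and Prg2 2.78-fold (1.48, scanner error 0.204), with Prss34 at least 2.95-fold and Cpa3 at least 2.28-fold higher. The median was 1.33, beside -0.04 over all genes. With normexp 2 of the 5 stayed past 2-fold, Epx and Prg2. The Tpsb2 probes disagreed, at -0.59 and 1.19.

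Markers of other cells were also higher on the null LMPP array: 4 of 7 erythroid genes compared, 4 of 7 megakaryocyte genes, 4 of 11 neutrophil and monocyte genes, 3 of 7 macrophage genes and 5 of 7 B lineage genes were past 2-fold higher than in wild type LMPP, and 0 in each list were lower. The summed level in LMPP as a fold of wild type HSC was 0.999 in wild type and 2.63 in null for the erythroid list, 0.846 and 1.15 for the megakaryocyte list, and 1.52 and 3.18 for the B lineage list. Of the 8 macrophage genes, 4 were detected in wild type LMPP and 7 in null LMPP, with C1qa in neither. The neutrophil and monocyte sums were 0.851 and 1.11, and the macrophage sums 0.959 and 0.881. The part of such cells in the LMPP difference was not tested.

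In CLP, 2 of the 9 genes compared were past 2-fold higher in null, against 11.9% of 13656 genes, and 0 were lower, against 8.33%. Mcpt8 was 3.84-fold higher (1.94, scanner error 0.250) and Cpa3 2.17-fold higher (1.12, scanner error 0.205). Hdc and Prss34 were 0.68 and 0.57 higher, while Epx, Prg2 and Ear6 were 0.45, 0.56 and 0.61 lower, below the 2-fold line. The median was -0.20, beside 0.05 over all genes. Of the 15 receptors and mediators of mast cells and basophils, 12 were compared. In null CLP 4 were past 2-fold higher, Il13 (2.13) and Cd200r3 (1.24) among them, and 0 were lower, against the same 11.9% and 8.33%. The median of the 12 was 0.46, and some went the other way below 2-fold, Ndst2 (-0.56) and Fcer1g (-0.24) among them. Il1rl1 probes disagreed here: the first differed by -0.20, the second by 0.94, and the third was at least 4.55-fold lower in null. On the null CLP array 3 of 4 CLP marker genes, 3 of 8 B lineage genes and 3 of 7 macrophage genes were also past 2-fold higher than in wild type. None of the 11 neutrophil and monocyte, 8 erythroid or 7 megakaryocyte genes was, and 0 in each of these lists were lower. The part of such cells in the CLP differences was not tested.

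**Figure D4:**
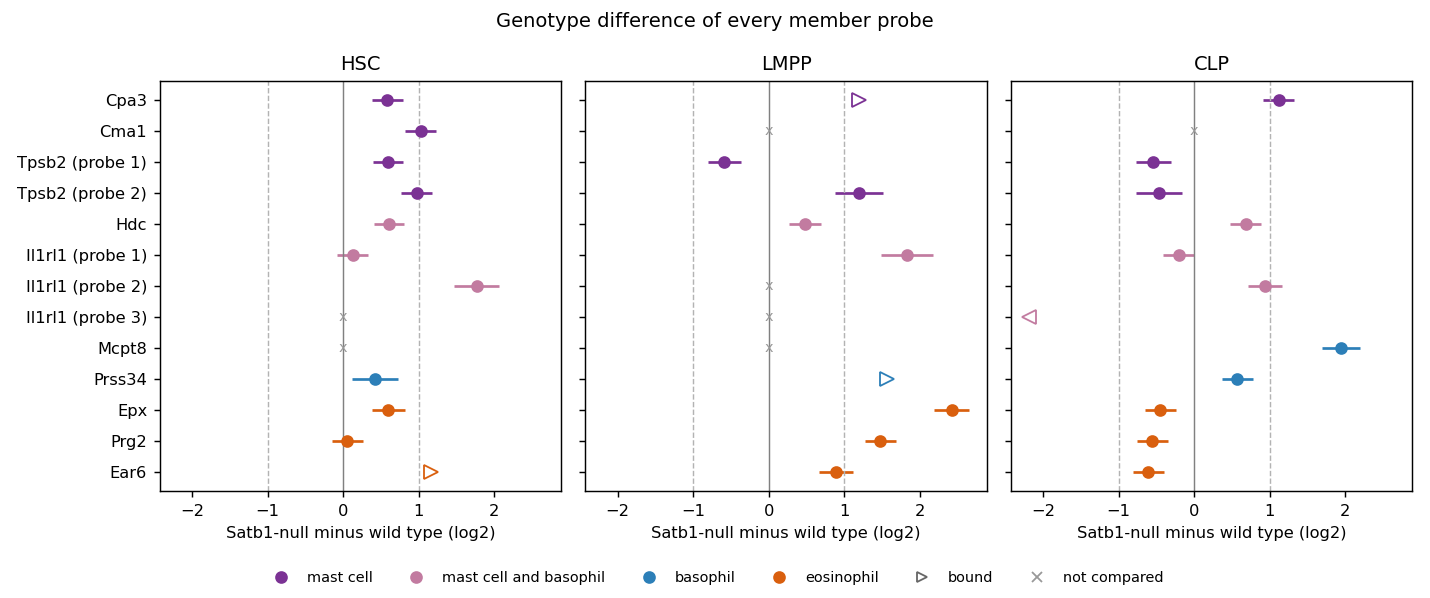
Null minus wild type log2 difference of each of the 13 probes in HSC, LMPP and CLP; bars are the scanner's error of the difference, triangles are bounds, crosses mark probes well above background on neither array, and dashed lines stand at 2-fold. In LMPP 5 genes lie past the upper line at their first probe, and in CLP Cpa3 and Mcpt8 do.

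A genotype term shared by HSC, LMPP and CLP was fitted with limma and Benjamini-Hochberg adjustment. It called 4 of 30576 probes higher in null (0.0131%) and 0 lower (0.0%), and none belonged to these genes. At an unadjusted p under 0.05 stood 3 of the 8 genes tested and 1896 probes in all. The differences were 0.96 for Cpa3 (SE 0.234), 0.85 for Prss34 (SE 0.310) and 0.59 for Hdc (SE 0.199), each with a limma adjusted p of 0.781. Cpa3 and Hdc were higher in null in 3 of 3 populations, as was Prss34, with bounds for Cpa3 and Prss34 in LMPP. The second Il1rl1 probe differed by 0.99 (SE 0.349, limma adjusted p = 0.781). Tpsb2 differed by -0.18 and 0.57 at its 2 probes, Prg2 by 0.32, Ear6 by 0.48, Il1rl1 by 0.58 and Epx by 0.86, with limma adjusted p-values from 0.814 to 0.926. Without the LMPP arrays the fitted differences became -0.25 for Prg2, 0.28 for Ear6, -0.04 for Il1rl1, 0.07 for Epx, 0.49 for Prss34 and 0.03 and 0.25 for the Tpsb2 probes. Without the CLP arrays they were 0.76 for Prg2, 1.03 for Ear6, 0.97 for Il1rl1, 1.51 for Epx and 0.0015 and 1.08 for the Tpsb2 probes. Without the HSC arrays Tpsb2 read -0.56 and 0.36 and Ear6 0.15. With any 1 population left out, 0 of 30576 probes were called, so these fits say nothing about stability of the calls.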

How the data were processed

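Each of the 6 samples has 1 array, and groups were taken from the sample titles. Per the labels' protocols, 6.1 ng of total RNA was amplified and labelled with Cy3. The deposited scanner files give spot intensity on a linear scale, made with Agilent Feature Extraction 10.10.1.1 per the file headers (10.10 per the submitters' processing notes). The authors' processed table equals the processed intensity times a constant per array (5.71 to 8.77, basis unknown; column medians 120.7 to 200.1). A single channel involves no direction, and that table was not centred.

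Of 62976 spots, 3671 control spots and 154 to 181 outlier-marked spots per array were left out. Intensity was turned to log2, the array's 75th percentile was subtracted, and spots of a probe were averaged (median SD of repeated spots 0.1315 to 0.1416). For genes with several probes, the probe with the highest mean was counted, and every probe is reported. The RefSeq table of GRCm38.p6 named 27248 of 55681 probes by accession. It was used for names, and the RefSeq promoters are of the same build; no coordinate of the scanner files was used. The lowest signals well above background lay between -4.19 and -3.76. Python 3.11.15, pandas 2.3.3, numpy 2.4.6, R 4.3.3 and limma 3.58.1 were used, and the limma step was tested on simulated data. In the fit, undetected values were lifted to that lowest signal.

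The genes and lists were chosen with earlier results of these data known. Named genes are all 10 genes with every probe, and from each other list up to 4 genes with a large difference, those past 2-fold in the same direction in at least 2 genotype comparisons, and genes below detection, with some list genes not reported here by name; Slc18a2, Gata2, Il5ra and the genes below detection were picked after their values were seen. Alternatives were other centrings, normexp (offset 50) on median spot and background signals, since the files used here hold median spot signals, quantile normalization, the authors' table, other thresholds, probe rules and fit settings. P-values rest on how the genotype difference varies between populations on these arrays, not on replicates. That spread may be technical, and it also holds any genotype difference particular to a population.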

Additional observations from a re-analysis of the deposited data

Results flagged for a closer look

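Some genes differed between genotypes in opposite directions in different populations, with 1 array for each value. The difference between populations was not tested. Tpsb2 (probe A_55_P2127243) was 0.59 higher in null than in wild type HSC, and differed by -0.59 in LMPP and -0.54 in CLP. Epx was higher by 0.60 in HSC and 2.42 in LMPP, and differed by -0.45 in CLP. Prg2 differed by 1.48 in LMPP and -0.56 in CLP. Ear6 differed by 0.90 in LMPP and -0.61 in CLP. The 3 eosinophil genes share the sign pattern of LMPP and CLP, and they come from the same arrays.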

How the results depend on the processing

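None of the differences past 2-fold changed sign under the other centrings, normexp or the authors' table. Prg2, 0.05 higher in null HSC, became -0.07 with the 75th percentile over detected probes, -0.08 with quantile normalization and -0.04 with the authors' table, and its wild type LMPP minus HSC difference, -0.0016, became 0.27 with median centring. Of 102 differences 71 were past 2-fold, and 23 of these were under 2-fold in at least 1 other centring, background correction or table. The counts of genes past 2-fold that moved by over 1.5 times were as follows. Null above wild type in HSC numbered 1 with the 75th percentile over detected probes, 0 with normexp, 1 with the authors' table, 5 at 1.5-fold and 0 at 3-fold, and 1 was lower with no detection filter. Over all genes, 1176 of 13943 were higher in the main setting. That became 934 of 13928 with the 75th percentile over detected probes, 278 of 13824 with normexp and 983 of 13930 with the authors' table. With no detection filter 1995 of 20667 genes were lower. In LMPP 2 were higher with normexp (176 of 13318 over all genes) and 2 at 3-fold, and 1 was lower at 1.5-fold. In CLP 1 was higher with normexp (544 of 13418 over all genes) and 1 at 3-fold, and 1 was lower at 1.5-fold. For LMPP against HSC 0 were higher with normexp (53 of 12705 over all genes). For CLP against LMPP 1 was lower at 1.5-fold, and for CLP against HSC, added after seeing the data, 4 were higher at 3-fold. The shares over all genes at 1.5-fold and 3-fold were not computed, so the counts at these thresholds show nothing particular to these genes. In limma, genes called higher in CLP than in LMPP numbered 4 with no floor (5 with the 75th percentile over detected probes, quantile normalization or the authors' table), and higher in CLP than in HSC 2 with the 75th percentile over detected probes, 2 with quantile normalization and 1 with no floor, with 2 lower when all probes were fitted. The cause was not tested. Over all genes, the median null minus wild type difference in HSC moved by 0.181 with median centring and by -0.122 with the 75th percentile over detected probes, so the 59.0% of past-2-fold genes that were higher became 73.5% and 46.9%. The share was 60.7% in LMPP and 74.9% with normexp. For LMPP against HSC it was 50.3%, with 33.4% to 70.2% under other scalings, for CLP against LMPP 52.0%, with up to 64.7%, and for CLP against HSC 57.6%, with 44.3% to 78.0%. Limma calls over all probes ran, for CLP against HSC, from 116 higher and 174 lower (no floor) to 1524 and 959 (normexp), beside 370 and 325, and for CLP against LMPP from 214 and 219 (no floor) to 1232 and 1471 (trend and robust), beside 490 and 409. With 1 array a group, neither the genotype nor the population values have replicates. A probe not well above background on an array gives at most a bound in comparisons with that array.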
